A study of Mus musculus with 4 samples.

Results

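Rag1, Rag2, Dntt, Vpreb1, Vpreb2, Vpreb3 and Igll1, the genes of V(D)J recombination and of the surrogate light chain, were followed through B cell development in mouse bone marrow. These 7 genes were taken by symbol from the 31053 genes of the matrices, and all 7 were found once in each matrix. Bone marrow mononuclear cells of C57BL/6 mice, flushed from femur and tibia and collected over Ficoll, had been profiled by single-cell RNA-seq in 4 libraries. The mice were either TLR9-/-, lacking the receptor for unmethylated CpG DNA, or wild type (WT), with 2 libraries per genotype and no treatment. Age was not given in the labels. Per the study's methods each library came from 1 mouse, and the mice were taken in 2 experiments with 1 mouse of each genotype in each. The labels do not tie the library numbers to these experiments, so the genotype tests have no term for the experiment, and the number of members called changed when libraries of the same number were treated as pairs.

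B cell precursors build the genes of their antigen receptor by cutting and joining gene segments. The RAG1 and RAG2 proteins form the recombinase that cuts, and Dntt encodes terminal deoxynucleotidyl transferase, which adds untemplated nucleotides at the joints. Heavy chains that have been rearranged are tested with a surrogate light chain, made of the VpreB proteins (Vpreb1, Vpreb2) and lambda5 (Igll1), on the surface of the precursor cell. Vpreb3 encodes a related protein that associates with newly made heavy chain inside B lineage cells.

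Per the annotation of GRCm38, all 7 genes are protein coding. Rag1 lies at chr2:101638282-101649501 on the minus strand and Rag2 at chr2:101624718-101632529 on the plus strand, with 5752 bases between them. Igll1 (chr16:16860671-16863985) and Vpreb1 (chr16:16868403-16870843) are neighbours on the minus strand with 4417 bases between them. Vpreb2 lies at chr16:17980428-17981273, Dntt at chr19:41029275-41059525 and Vpreb3 at chr10:75943057-75949657, all on the plus strand. The Vpreb1 and Vpreb2 transcripts were 97.4% identical over 759 aligned bases with 20 mismatches, and 15.8% of the 90-base windows of Vpreb1 occurred in Vpreb2, so UMIs may be split between these copies and their separate values are uncertain. B230118H07Rik overlaps both Rag1, on the same strand, and Rag2, on the opposite strand, and Top3b overlaps Vpreb1 on the opposite strand.

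The 250 bases before the RefSeq start (GRCm38.p6) of Igll1, Rag1 and Rag2 are shown because these genes stand for the surrogate light chain and the recombinase in the results. The window of Igll1 is chr16:16863986-16864235 (minus strand), that of Rag1 chr2:101649533-101649782 (minus strand) and that of Rag2 chr2:101624462-101624711 (plus strand). Capitals mark matches to CAGNTG, an E-box core, and to CCCNNGGG, an EBF core, sought on both strands, and no matches overlapped.
Igll1: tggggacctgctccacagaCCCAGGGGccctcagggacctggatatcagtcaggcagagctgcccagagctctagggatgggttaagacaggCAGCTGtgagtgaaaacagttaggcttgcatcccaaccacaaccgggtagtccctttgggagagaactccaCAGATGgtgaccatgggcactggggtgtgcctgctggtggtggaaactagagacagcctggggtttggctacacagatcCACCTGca
Rag1: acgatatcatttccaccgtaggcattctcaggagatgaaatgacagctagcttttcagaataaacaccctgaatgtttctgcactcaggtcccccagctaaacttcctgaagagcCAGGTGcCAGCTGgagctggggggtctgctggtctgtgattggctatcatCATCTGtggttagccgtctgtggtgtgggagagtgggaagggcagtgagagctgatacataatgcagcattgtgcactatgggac
Rag2: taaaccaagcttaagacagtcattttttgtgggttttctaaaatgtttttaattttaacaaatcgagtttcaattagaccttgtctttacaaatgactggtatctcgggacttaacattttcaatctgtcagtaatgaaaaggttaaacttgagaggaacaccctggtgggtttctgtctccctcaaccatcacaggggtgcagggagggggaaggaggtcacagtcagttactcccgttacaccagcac
Igll1 held 3 E-box matches and 1 EBF match, Rag1 held 3 E-box matches, and Rag2 held neither. Of the other members, Vpreb1 and Vpreb3 had 1 E-box match each, Vpreb2 had 2, and Dntt had none. However, 190 of the 250 bases for Vpreb1 and 137 for Vpreb2 lay in annotated exons of the gene itself. The Vpreb3 window (chr10:75948050-75948299) lay inside the annotated interval of its gene. Among the windows of 32851 genes, 44.8% held CAGNTG and 11.8% held CCCNNGGG, so the E-box was common and only the EBF core of Igll1 was the rarer motif. These matches are a description of the letters in the windows.

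Of 40545 barcodes, 39167 passed the filters, with 31210188 to 63958243 UMIs per library and a median of 1759 to 3618 UMIs per cell. Tlr9 was counted at 0.817 and 0.750 counts per 1000000 UMIs (CPM) in TLR9-/- against 3.84 and 2.34 CPM in WT, lower in both TLR9-/- libraries but above 0. Any pair of libraries shared 112 to 185 cell barcodes. Cells were placed in gates by UMIs of marker genes, with none of the 7 members used. The B lineage gates needed at least 2 UMIs over a B list of 5 genes that included Cd79a, Cd79b, Ebf1 and Pax5. Pro-B cells also had a UMI of Kit, Cd34, Flt3 or Erg, cycling pre-B cells had at least 3 UMIs of G2/M genes, and immature B cells had Ms4a1. Small pre-B cells had none of these, mature B cells had at least 2 UMIs of Ighd, Fcer2a or Cr2, and Flt3 progenitors had Flt3 with at most 1 UMI of the B list and at most 2 UMIs of Mpo, Elane, Prtn3 and Lyz2 together, and 20% to 56.2% of them held a UMI of the B list. Plasmacytoid dendritic cells (pDCs) were gated on Siglech and 5 further genes. The gates held 16 to 27 Flt3 progenitors, 40 to 96 pro-B, 249 to 1267 cycling pre-B, 465 to 2021 small pre-B, 270 to 615 immature B, 294 to 857 mature B and 438 to 785 pDC gate cells per library. Each library also held 6 to 11 cells of a stem cell gate, too few for a fit.

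Of the markers left out of the gates, Il2ra set small pre-B cells apart from cycling and pro-B cells, while Igkc overlapped between gates. Il2ra, the CD25 gene of small pre-B cells, stood at 53.1 to 95.4 CPM in the small pre-B gate, at 7.57 to 11.1 CPM in the cycling gate and at 0 to 7.35 CPM in the pro-B gate. Igkc, the kappa constant region, ranged from 1615 to 2842 CPM in small pre-B cells. It was at 2410 to 3539 CPM in immature B and 1975 to 2676 CPM in mature B cells. In the pro-B gate Igkc was uneven, 191 and 2405 CPM in TLR9-/- against 6348 and 252 CPM in WT, while 25% to 38.6% of the gate's cells held it, so 2 libraries carried a few pro-B gate cells with much Igkc. The part of these cells in the pro-B values was not tested. Cells that fitted no gate, 1380 to 1988 per library, held 13.7% to 32.2% of each member's UMIs, and no doublet caller was run.

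Dntt and Rag2 were counted in every library before the pro-B gate, while Rag1, the surrogate light chain genes and Vpreb3 rose at that gate. The order among these later members is not resolved, and the difference between Rag2 and Rag1 was not tested. In Flt3 progenitors Dntt was already at 508 and 883 CPM in TLR9-/- against 937 and 601 CPM in WT. Rag2 was at 20.8 to 57.8 CPM in the same cells, from 2 to 5 UMIs per library. Igll1 had 0 UMIs in all 4 libraries, which allows up to 19.5 to 34.7 CPM per library (3 counts, counting error only). Rag1 had 3 UMIs in 1 library, Vpreb1 2 in 1 library, Vpreb2 1 in 1 library and Vpreb3 2 over 2 libraries. Thus Dntt and Rag2 were the only members seen in every library at this stage.

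**Figure D1:**
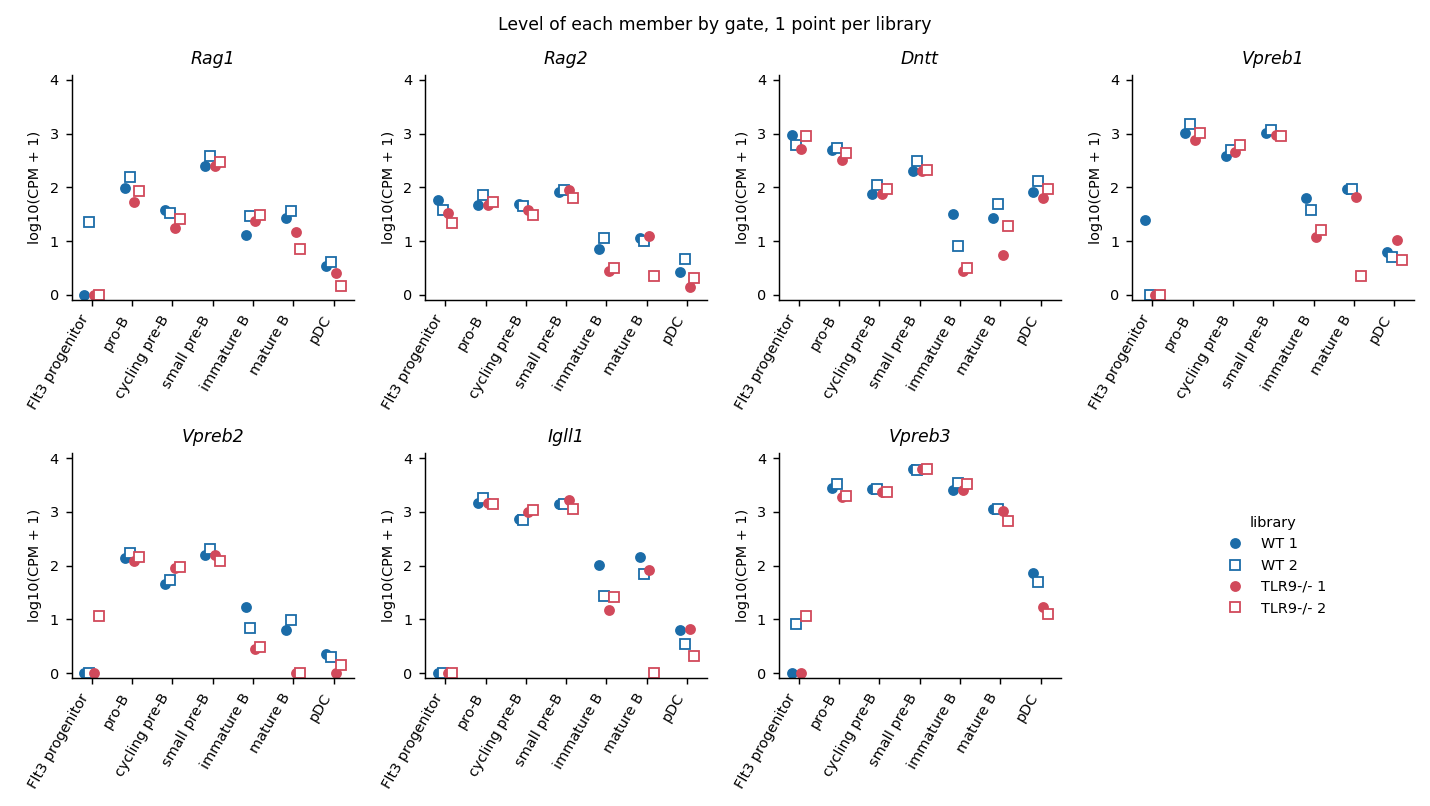
Level of each gene by gate, as log10(CPM + 1) on the vertical axis with 1 point per library (blue WT, red TLR9-/-, filled for library 1, open for library 2). Dntt starts high in Flt3 progenitors, the surrogate light chain genes rise at the pro-B gate, Rag1 dips in cycling pre-B cells, and all 7 genes drop at the immature B gate, Vpreb3 least, staying above 2500 CPM.

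From Flt3 progenitors to pro-B cells, 5 of the 7 members rose and 1 fell by the edgeR quasi-likelihood test with a library term (adjusted p under 0.05 over 3183 genes), where 9.14% of all genes passed, 4.71% higher and 4.43% lower. With the 4 libraries pooled, Igll1 went from 0 to 2583 UMIs, at least 247-fold higher in CPM against a floor of 3 counts over the pooled gate. Vpreb1 went from 2 to 1784 UMIs, a ratio of 256 with a 95% counting interval of 70.8 to 2117. Vpreb2 went from 1 to 234 UMIs (ratio 67.2, interval 11.9 to 2665) and Vpreb3 from 2 to 4178 (ratio 600, interval 166 to 4955). The surrogate light chain genes and Vpreb3 were thus near or at 0 before the pro-B gate and abundant in it. Rag1 rose from 3 to 163 UMIs (ratio 15.6, interval 5.24 to 76.4). Rag2 did not pass, at 17 and 90 UMIs (ratio 1.52, interval 0.899 to 2.72, edgeR adjusted p = 0.451). Dntt was lower in pro-B cells, at 328 and 444 CPM in TLR9-/- against 493 and 529 CPM in WT, a log2 change of -0.74 ± 0.17 (SE, 4 libraries, edgeR adjusted p = 0.0139). That call depended on the libraries. Its edgeR adjusted p was 0.128 without TLR9-/- 1, 0.0725 without TLR9-/- 2 and 0.0949 without WT 1, and with cells holding 0 UMIs of other lineages the sign reversed to 0.12 (adjusted p = 0.827).

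From the pro-B to the cycling gate 5 of the 7 members were lower and none was higher, where 17.6% of all genes passed, 8.71% higher and 8.89% lower. The pro-B gate set no limit on G2/M genes, and 35% to 61.4% of its cells held a UMI of them. Cells of the cycling gate held no UMI of Kit, Cd34, Flt3 or Erg. This step therefore parts cells by early markers too and is not a comparison of resting with cycling cells. Dntt fell most, from 328 to 529 CPM in pro-B cells to 73.9 to 109 CPM, a log2 change of -2.30 ± 0.11 (SE, 4 libraries, edgeR adjusted p = 8.78e-09). Rag1 went from 52.1, 83.6, 95.6 and 156 CPM to 16.4, 24.5, 36.6 and 31.9 CPM in TLR9-/- 1, TLR9-/- 2, WT 1 and WT 2, a log2 change of -1.76 ± 0.18 (edgeR adjusted p = 1.18e-05). Every library was lower in the cycling gate for both genes. Vpreb1 changed by -1.07 ± 0.12, Vpreb2 by -1.01 ± 0.19 and Igll1 by -0.77 ± 0.12 on the log2 scale. Rag2, with a log2 difference of -0.39 ± 0.19 (edgeR adjusted p = 0.190), and Vpreb3, with 0.10 ± 0.09 (edgeR adjusted p = 0.486), did not pass. The recombinase genes therefore parted here in the test, Rag1 passing and Rag2 not, but the difference between them was not tested.

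From cycling to small pre-B cells, 7 of 7 members rose as a share of the gate's UMIs (CPM). The median depth was 2765 to 5859 UMIs per cell in the cycling gate and 914 to 1465 in the small pre-B gate. A rise in CPM is therefore not a rise in UMIs per cell. UMIs per cell rose in every library only for Rag1. They fell in every library for Rag2, Dntt, Vpreb1, Igll1 and Vpreb3, and for Vpreb2 in all but WT 1. In TLR9-/- 1, for example, 759 cycling cells held 65 Rag1 and 144 Rag2 UMIs, and 1240 small pre-B cells held 354 and 127. The change in UMIs per cell was not tested. This step moved much of the transcriptome, with 61.5% of all genes past the threshold, 31.2% higher and 30.3% lower. Rag1 reached its highest level, at 245 and 295 CPM in TLR9-/- against 248 and 374 CPM in WT, a log2 change of 3.19 ± 0.15 (SE, 4 libraries) from the cycling gate. Rag2 rose by 0.81 ± 0.11 on the log2 scale to 87.8 and 62.7 CPM in TLR9-/- against 82.5 and 87.4 CPM in WT. By CPM, small pre-B cells were the highest gate for both recombinase genes. The share of cells with a Rag2 UMI ran otherwise. It was 17.7% to 27.5% in pro-B, 14.9% to 20.2% in cycling and 7.97% to 11.8% in small pre-B cells. In cells reduced to 1000 UMIs it was 8.22% to 10%, 4.49% to 6.26% and 5.67% to 9.22%. Dntt rose by 1.19 ± 0.09, Vpreb1 by 0.87 ± 0.12, Vpreb2 by 1.06 ± 0.20 and Igll1 by 0.48 ± 0.12 on the log2 scale, the last in 3 of 4 libraries. Vpreb3 rose by 1.10 ± 0.05 to 6096 to 6330 CPM. The rise did not hold in all cells of the gate. For this comparison cells were reduced to 1000 UMIs and those with fewer were left out. That kept 245 to 1230 cycling and 406 to 944 small pre-B cells per library, so shallow small pre-B cells are not covered. Among cells reduced to 1000 UMIs and holding no Igll1, Vpreb1 gave 26.5 to 47.4 UMIs per 1000 cells in the small pre-B gate against 56.8 to 118 in the cycling gate, lower in the small pre-B gate in every library. In the same cells Dntt (5.71 to 15.3 against 6.17 to 16.7), Vpreb2 (0 to 8.37 against 3.22 to 12.5) and Rag2 (45.7 to 69.7 against 43.2 to 60.5) overlapped. Rag1 (178 to 347 against 30.9 to 60.02) and Vpreb3 (4924 to 6257 against 3129 to 3241) were higher in the small pre-B gate.

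From small pre-B to immature B cells all 7 members fell, where 29.1% of all genes passed, 15.7% higher and 13.5% lower. The log2 change was -5.0 ± 0.27 (SE, 4 libraries) for Igll1, -4.90 ± 0.20 for Vpreb1, -4.42 ± 0.26 for Vpreb2 and -4.23 ± 0.32 for Dntt. Rag1 fell by 3.64 ± 0.15 to 12.1 to 29.4 CPM and Rag2 fell by 3.72 ± 0.25 to 1.77 to 10.4 CPM. Vpreb3 fell by only 1.01 ± 0.07 and kept 2547 to 3410 CPM. In mature B cells Vpreb3 fell again to 674 to 1154 CPM, a log2 change of -1.47 ± 0.12 (edgeR adjusted p = 1.73e-07).

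Of 5 members tested between immature and mature B cells, Vpreb3 was lower and Dntt (log2 change 1.46 ± 0.41, edgeR adjusted p = 0.0256) and Vpreb1 (1.10 ± 0.33, edgeR adjusted p = 0.0341) were higher, where 12.2% of all genes passed, 6.66% higher and 5.49% lower. The higher calls rested on few cells. In the mature gate of TLR9-/- 2, 24 of 29 Dntt UMIs came from 1 cell. In WT 2, 113 Vpreb1 UMIs came from 19 of 763 cells, and in WT 1, 84 Igll1 UMIs came from 9 cells with the highest holding 28. Without WT 2 neither Dntt (edgeR adjusted p = 0.483) nor Vpreb1 (0.326) passed. Dntt was also lost without TLR9-/- 2 (0.108), and Vpreb1 without TLR9-/- 1 (0.131) or WT 1 (0.0547).

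The share of cells with a UMI gave the same order for Rag1 as CPM among cells reduced to 1000 UMIs. Cells with fewer UMIs were left out of these shares. That kept nearly all of the cycling gate but, in WT 1 and TLR9-/- 1, only the deeper part of the small pre-B gate. Rag1 was found in 14.2% ± 4.50 of pro-B, 4.03% ± 0.961 of cycling and 22.2% ± 5.88 of small pre-B cells (SD, n = 4), against 0% to 0.0809% of monocyte gate cells. Over all cells of the gates, without reduction, these shares were 32.7%, 11.5% and 29.1%, with pro-B cells highest. Igll1 was found in 56.8% ± 9.14 of pro-B, 29.9% ± 5.98 of cycling and 25.6% ± 8.87 of small pre-B cells (SD, n = 4), against 0.0815% to 0.169% of monocytes. The Igll1 share in small pre-B cells went with depth. It was 17.9% over all cells and 53.3% over the 97 to 173 cells per library with at least 2000 UMIs, while the median depth of the gate was 914 to 1465 UMIs. Dntt was found in 33.7% ± 9.53 of Flt3 progenitors, 40.6% ± 6.81 of pro-B and 13.3% ± 4.69 of small pre-B cells (SD, n = 4), against 0% to 0.254% of monocytes. The smallest p an exact permutation test can give with 2 against 2 libraries is 0.33, and none of these shares could pass between genotypes.

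Within the small pre-B gate the surrogate light chain and Dntt were concentrated in a small part of the cells, while Rag1 was spread over more of them. Of the cells reduced to 1000 UMIs, 11.3% to 26.3% held 3 or more Igll1 UMIs and 65.9% to 86.2% held none. Per 1000 cells, Dntt gave 891 to 1194 UMIs in the cells with 3 or more Igll1 UMIs and 5.71 to 15.3 in those with none. Vpreb1 gave 4500 to 5427 against 26.5 to 47.4 UMIs, and Vpreb2 652 to 828 against 0 to 8.37. In every library the cells high in Igll1 were also the cells with Dntt, Vpreb1 and Vpreb2. They held 87.0% to 94.8% of the Dntt UMIs left in the reduced cells, which are only a part of the gate's Dntt UMIs. Rag1 gave 304 to 567 UMIs per 1000 cells with 3 or more Igll1 UMIs and 178 to 347 in those without, and the ranges overlapped. Rag2 gave 130 to 219 against 45.7 to 69.7, and Vpreb3 8000 to 10517 against 4924 to 6257. The cells high in Igll1 held 10.7% to 40.0% of the Rag1 UMIs left in the reduced cells. Igkc ran the other way, at 83.3 to 478 against 1957 to 3031 UMIs per 1000 cells, as did Il7r, the interleukin 7 receptor gene, at 109 to 274 against 343 to 507. Pro-B gate cells with 3 or more Igll1 UMIs gave overlapping values for Dntt, 769 to 1452, and for Vpreb1, 3538 to 5692. Their values for Vpreb2, 385 to 606, and for Igkc, 0 to 76.9, were below those of the small pre-B gate in every library. The small pre-B gate is defined by the absence of markers. Whether its cells high in Igll1 were pro-B cells with no pro-B marker UMI detected was not tested.

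**Figure D2:**
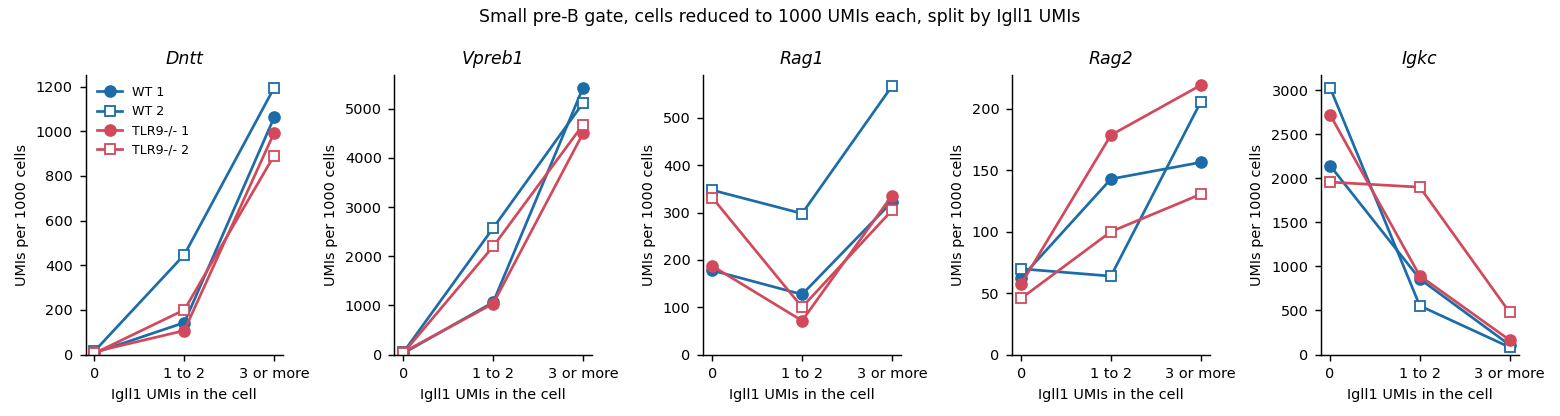
UMIs per 1000 cells (vertical axes) of 4 members and Igkc in small pre-B gate cells with 0, 1 to 2, or 3 or more Igll1 UMIs, 1 line per library. Cells with at least 1000 UMIs were reduced to 1000 each, and the others were left out. Dntt and Vpreb1 climb with Igll1 in all 4 libraries, Igkc falls, and Rag1 is present at 178 or more UMIs per 1000 cells in the class without Igll1.

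Single cells showed the same grouping. Among small pre-B cells with a Dntt UMI, 92.6% to 97.9% also had Igll1, against 8.18% to 20.5% of those without. Among cells with Igll1, 86.1% to 96.4% had Vpreb1, against 2.08% to 4.24% of those without. Rag1 and Rag2 met less often, with Rag2 in 10.5% to 13.5% of Rag1-positive and 3.99% to 8.35% of Rag1-negative cells. In turn Rag1 was in 24.5% to 47.8% of Rag2-positive and 15.9% to 27.0% of Rag2-negative cells. At this depth Rag2 was found in only 5.67% to 9.22% of small pre-B cells, so few cells could hold both. In pro-B cells 60% to 87.5% of Dntt-positive cells held Igll1, and in cycling cells 89.8% to 97.0%. Cells of a library are not replicates, and these shares are descriptions.

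The pDC gate held Dntt and little of the other members except Vpreb3, most of which was in cells that also held B lineage UMIs. Dntt stood at 62.4 and 92.2 CPM in TLR9-/- against 82.3 and 127 CPM in WT, in 10.3% ± 2.82 of cells reduced to 1000 UMIs (SD, n = 4), against 0.116 to 5.48 CPM in the monocyte gate and 11.7 to 27.9 CPM in the myeloid progenitor gate. All pDC libraries were above all myeloid ones. Rag1 reached 0.434 to 3.03 CPM, Rag2 0.374 to 3.54 CPM, Vpreb2 0 to 1.24 CPM, Igll1 1.08 to 5.6 CPM and Vpreb1 3.47 to 9.34 CPM, from 0 to 25 UMIs per library each. Vpreb3 stood at 16.1 and 11.7 CPM in TLR9-/- against 71.5 and 49.1 CPM in WT. Of the 3 members tested against Flt3 progenitors, Dntt fell by 2.88 ± 0.18 and Rag2 fell by 4.31 ± 0.58 on the log2 scale and Vpreb3 rose by 3.14 ± 0.74 (SE, 4 libraries, edgeR adjusted p = 0.00328), where 14.5% of all genes passed, 9.33% higher and 5.17% lower. The Vpreb3 call was lost without WT 1 (edgeR adjusted p = 0.0539) and with DESeq2 (adjusted p = 0.0592). The Flt3 progenitor gate allowed at most 1 UMI of the B list and the pDC gate allowed more, so the gates differed in the B lineage RNA they admit. In pDC gate cells with 0 UMIs of the B list Vpreb3 was at 0.345 to 9.62 CPM, against 0 to 10.4 CPM in Flt3 progenitors. The part of the gate rule in this rise was not tested. The pDC gate was checked by Bst2, at 2996 to 4204 CPM, and Tcf4, at 624 to 803 CPM in 84.2% to 94.0% of cells, neither of them part of the gate. Genes of other lineages were present too. Camp, of neutrophil granules, was at 4656 to 8796 CPM in 8.54% to 40.9% of cells, Elane at 1887 to 5007 CPM, Ngp at 2213 to 3737 CPM and Lyz2 at 1224 to 1479 CPM. The part of this RNA in the pDC values was not tested.

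The genotypes were then compared. Over all cells of a library, 7 of 7 members were lower in both TLR9-/- libraries than in both WT libraries, where 25.9% of all genes were. By the edgeR test 0 members passed (adjusted p = 0.0891 to 0.328), where 0.268% of all genes passed and 0.134% were lower. At an unadjusted p under 0.05 there were 6 members, against 17.1% of all genes, and DESeq2 called 5, against 6.5% of all genes. Rag1 was at 11.2 and 6.94 normalised CPM (TMM) in TLR9-/- against 31.3 and 28.9 in WT, a log2 difference of -1.73 ± 0.25 (SE, 2 libraries per genotype). Vpreb3 was at 524 and 273 against 1203 and 946 normalised CPM, and the median difference of the 7 members was -1.30, against -0.02 for all genes. The pro-B and pre-B gates held 19.3% and 8.45% of the TLR9-/- cells and 32.0% and 24.1% of the WT cells. In such sums fewer cells of a type and less RNA per cell cannot be told apart. With 1 library left out, the log2 differences of the members ran from -2.26 (lowest, Rag2) to -0.44 (highest, Igll1). Among cells with at least 1000 UMIs Rag1 alone passed, and the share of all genes passing there is not given.

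Within the pro-B and pre-B gates every member's log2 difference was nearer 0 than over all cells. In pro-B cells 0 of 7 members passed (edgeR adjusted p = 0.633 to 0.976, 0.0949% of all genes passed with 0.038% higher and 0.057% lower, 2 members and 5.85% of all genes at an unadjusted p under 0.05, 0 members and 0.019% of all genes by DESeq2). Rag1 was at 54.9 and 88.0 normalised CPM in TLR9-/- against 101 and 168 in WT, a log2 difference of -0.96 ± 0.33. Vpreb3, with 1959 and 2084 against 2965 and 3554 normalised CPM (-0.69 ± 0.22), and Dntt, with 345 and 467 against 522 and 568 (-0.43 ± 0.26), were also lower in both TLR9-/- libraries without overlap. These 3 of 7 compare with 16.9% of all genes, and the other 4 members overlapped between the genotypes. Over the alternatives run, the log2 difference of Rag1 ran from -1.30 to 0.13 and that of Dntt from -0.66 to 0.29, so their sign was not stable. That of Vpreb3 ran from -0.82 to -0.18. In Flt3 progenitors Dntt was the only member tested and overlapped, with a log2 difference of -0.19 ± 0.39 (edgeR adjusted p = 1.00), where 0.0581% of all genes passed.

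**Figure D3:**
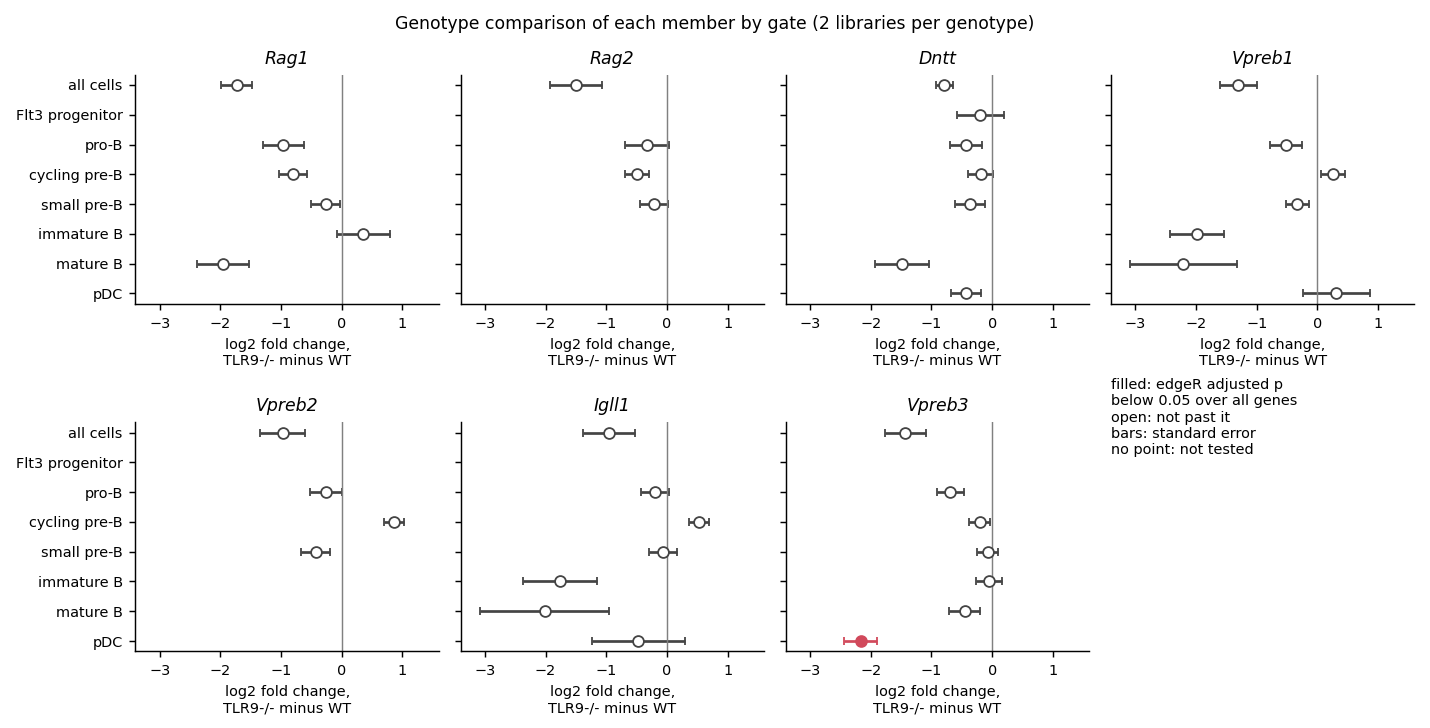
Log2 fold change of TLR9-/- minus WT (horizontal axes) with its standard error for each gene, over all cells and in each gate, 2 libraries per genotype. All 7 genes are left of 0 over all cells, the pro-B and pre-B values lie nearer 0, Vpreb2 and Igll1 are right of 0 in cycling pre-B cells, and the only filled point is Vpreb3 in the pDC gate.

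In cycling pre-B cells Vpreb2 and Igll1 were higher, and Rag1, Rag2 and Vpreb3 lower, in both TLR9-/- libraries than in both WT libraries. These counts, 2 higher and 3 lower of 7, compare with 22.2% of all genes higher and 20.7% lower without overlap. The edgeR test called 0 of 7 (adjusted p = 0.0793 to 0.784), where 0.32% of all genes passed (0.15% higher and 0.17% lower), with 4 members and 10.6% of all genes at an unadjusted p under 0.05, and 0 members and 0.51% of all genes by DESeq2. Vpreb2 was at 90.8 and 92.1 normalised CPM in TLR9-/- against 46.0 and 54.2 in WT, a log2 difference of 0.87 ± 0.16 (edgeR adjusted p = 0.0793). With 1 library left out that difference ran from 0.75 to 0.99. Igll1 was at 1019 and 1072 against 740 and 711 normalised CPM, a log2 difference of 0.53 ± 0.16 (edgeR adjusted p = 0.313). Both TLR9-/- libraries were above both WT libraries for these genes, while Vpreb1 overlapped (456 and 604 against 392 and 489). Rag1 was at 16.6 and 24.0 against 37.2 and 32.0 normalised CPM (-0.81 ± 0.23, edgeR adjusted p = 0.269) and Rag2 at 36.7 and 28.4 against 49.6 and 43.1 (-0.49 ± 0.20, edgeR adjusted p = 0.447). Both recombinase genes were lower in the TLR9-/- libraries without overlap. Vpreb3 was likewise lower, by -0.20 ± 0.17 on the log2 scale, and Dntt overlapped.

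In small pre-B cells, the gate with the highest Rag1 CPM, 0 of 7 members passed (edgeR adjusted p = 0.958 to 0.990, 0.336% of all genes passed with 0.123% higher and 0.213% lower, 0 members and 5.37% of all genes at an unadjusted p under 0.05, 0 members and 0.38% of all genes by DESeq2). Rag1 was at 247 and 286 normalised CPM in TLR9-/- against 260 and 380 in WT, a log2 difference of -0.27 ± 0.24. Igll1 was at 1663 and 1110 against 1496 and 1408 (-0.07 ± 0.23) and Vpreb3 at 6223 and 6001 against 6642 and 6183 (-0.07 ± 0.17). These 3 overlapped between the genotypes. Vpreb1 (953 and 859 against 1086 and 1189) and Vpreb2 (158 and 116 against 166 and 205) were lower in the TLR9-/- libraries without overlap, by -0.33 ± 0.20 and -0.43 ± 0.23 on the log2 scale, where 13.3% of all genes were lower in this way.

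The genotype difference of Vpreb2 thus changed sign between cycling and small pre-B cells. A test of the change itself, added after the data had been seen, gave -1.26 ± 0.18 on the log2 scale for Vpreb2 (edgeR adjusted p = 0.00274), the only one of 7 members to pass, where 0.282% of all genes passed, 0.191% higher and 0.0906% lower. The call was lost among cells with at least 1000 UMIs (-1.32, adjusted p = 0.299) and among cells with 0 UMIs of other lineages (-0.83, adjusted p = 0.108). Vpreb1 (-0.56 ± 0.15, adjusted p = 0.251) and Igll1 (-0.59 ± 0.16, adjusted p = 0.242) had the same sign and did not pass with all 4 libraries. With 1 library left out, the change ran from -0.87 to -0.30 for Vpreb1 and from -0.95 to -0.28 for Igll1. For Rag1 it had the opposite sign, 0.20 to 0.96.

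**Figure D4:**
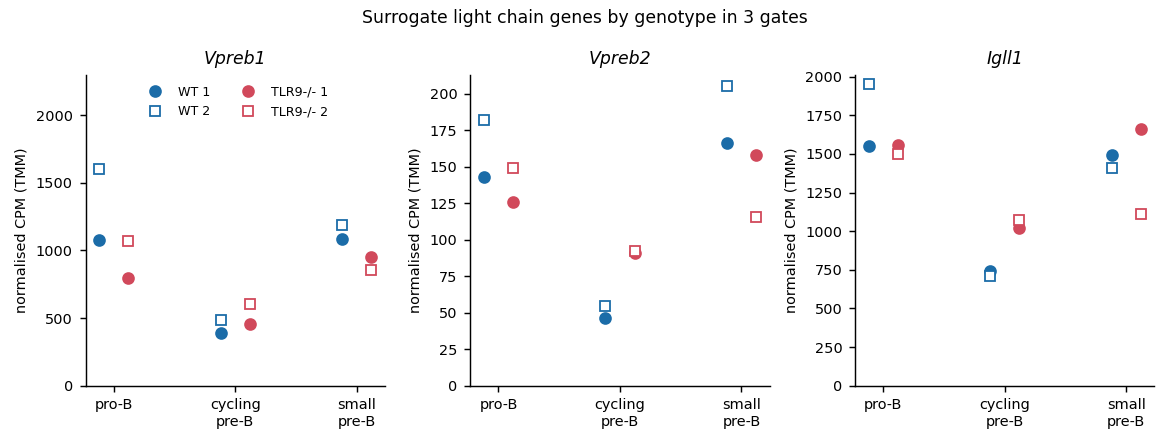
Normalised CPM (TMM, vertical axes) of Vpreb1, Vpreb2 and Igll1 in the pro-B, cycling and small pre-B gates, 1 point per library (blue WT, red TLR9-/-, filled for library 1, open for library 2). In the cycling gate both TLR9-/- points of Vpreb2 lie above 90 and both WT points below 55, while in the small pre-B gate both TLR9-/- points lie below both WT points.

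After the pre-B stage counts were low for all members but Vpreb3. In immature B cells 0 of 4 members tested passed (edgeR adjusted p = 0.208 to 0.994, 0.207% of all genes passed with 0.103% in each direction, 2 members and 4.76% of all genes at an unadjusted p under 0.05, 0 members and 0.2% of all genes by DESeq2). Vpreb1 had 6 and 7 UMIs in TLR9-/- against 51 and 32 in WT, a log2 difference of -1.98 ± 0.44 (edgeR adjusted p = 0.208), and Igll1 had 8 and 12 against 85 and 23 (-1.76 ± 0.61, edgeR adjusted p = 0.810). The TLR9-/- values were below the WT values for both, where 15% of all genes were lower without overlap. These UMIs were in few cells. In WT 2, 22 of 32 Vpreb1 and 19 of 23 Igll1 UMIs came from 1 cell each. In WT 1, 47 of 51 Vpreb1 UMIs were in 10 cells, and in TLR9-/- 2, 11 of 12 Igll1 UMIs were in 1 cell. With 1 library left out, the log2 difference ran from -2.35 to -1.54 for Vpreb1 and from -2.47 to -0.45 for Igll1. Rag1 overlapped, with 13 and 14 against 10 and 24 UMIs. Vpreb3 overlapped too, with 2626 and 3331 against 2727 and 3457 normalised CPM and a log2 difference of -0.05 ± 0.21. In mature B cells 0 of 5 tested passed (edgeR adjusted p = 0.168 to 0.960, 0.248% of all genes passed with 0.124% in each direction, 3 members and 5.21% of all genes at an unadjusted p under 0.05, 0 members and 0.234% of all genes by DESeq2). Rag1 had 6 and 10 UMIs in TLR9-/- against 15 and 43 in WT, and Igll1 had 36 and 0 against 84 and 85. With 1 library left out, the log2 difference there ran from -2.34 to -1.22 for Rag1 and from -3.10 to -0.97 for Dntt. It ran from -6.11 to -0.56 for Vpreb1 and from -9.91 to -0.38 for Igll1.

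In the pDC gate 1 of 4 tested members passed, where 0.243% of all genes passed, 0.0709% higher and 0.172% lower. Vpreb3 had 43 and 54 UMIs in TLR9-/- against 173 and 97 in WT, or 16.1 and 11.7 against 73.4 and 48.7 normalised CPM, a log2 difference of -2.16 ± 0.27 (edgeR adjusted p = 0.0185). Both TLR9-/- libraries lay below both WT libraries, and the log2 difference ranged from -2.44 to -1.84 over the alternatives that gave a value. B lineage genes moved with it. The 5 genes of the B list summed to 107 and 95.6 CPM in TLR9-/- against 239 and 154 CPM in WT, with 5 of 5 above 0 in each. Cd79a alone stood at 23.9 and 20.2 against 75.6 and 51.6 CPM. In pDC gate cells with 0 UMIs of the B list, Vpreb3 had 7 and 1 UMIs in 583 and 537 TLR9-/- cells and 8 and 13 UMIs in 602 and 318 WT cells. At that level, 0.345 to 9.62 CPM, it was below the filter and no difference could be tested. Most Vpreb3 UMIs of the gate were in cells that also held B lineage UMIs. Dntt, with 62.6 and 92.1 against 84.4 and 127 normalised CPM, overlapped (-0.43 ± 0.25, edgeR adjusted p = 0.769), as did Vpreb1 and Igll1.

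**Figure D5:**
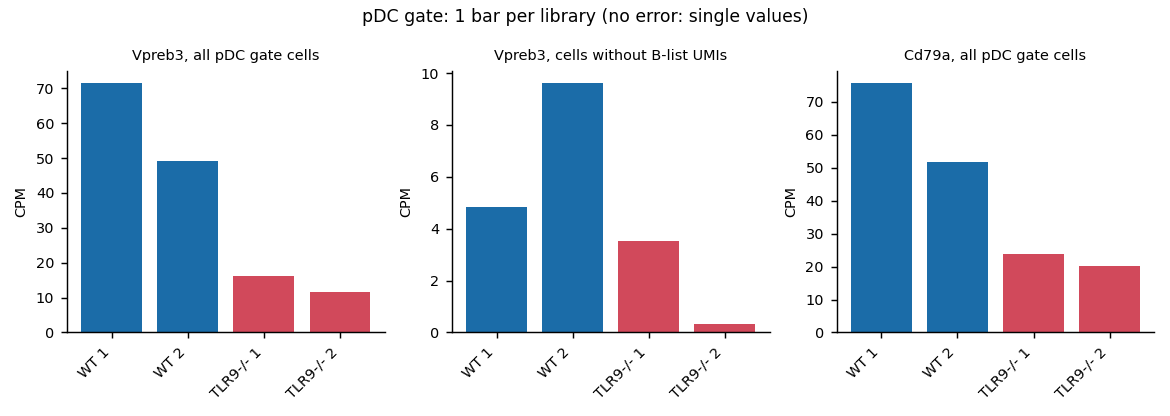
CPM (vertical axes from 0, on different scales) of Vpreb3 in all pDC gate cells, of Vpreb3 in those with 0 UMIs of the B list, and of Cd79a, with 1 bar per library (blue WT, red TLR9-/-) and no error bar. Vpreb3 and Cd79a fall in the same order of libraries in the gate, and Vpreb3 stays under 10 CPM in all 4 libraries once cells with B list UMIs are left out.

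Genes that act beside the members were followed in 3 lists. They held 15 end joining partners, 15 regulators of Rag transcription and 11 partners of the pre-B receptor. By genotype, none of the genes tested passed the edgeR test in any gate or over all cells. All were tested over all cells and in cycling cells, but not in the other gates. There were 4, 8 and 2 tested in Flt3 progenitors, 5, 13 and 8 in pro-B cells and 12, 15 and 11 in small pre-B cells. At an unadjusted p under 0.05 there were 3, 9 and 6 over all cells, where 17.1% of all genes were. There were 0, 2 and 2 in pro-B cells (5.85% of all genes), 2, 3 and 3 in cycling cells (10.6%), and 0 of each in small pre-B cells (5.37%). From pro-B to cycling cells, where 8.71% of all genes rose and 8.89% fell, 4 of 13 tested joining partners rose and 0 fell, including Polm, a polymerase that fills in at joints (log2 change 1.06 ± 0.30), and H2afx, the histone marked at breaks (0.96 ± 0.12). Of 15 regulators 7 rose and 5 fell, with Irf4, a factor of light chain opening, at 1.39 ± 0.15 and Satb1, a chromatin organiser, at -1.47 ± 0.20. Of 9 receptor partners 5 rose and 0 fell, with Cd22 at 1.72 ± 0.35 and the kinase Blk at 1.34 ± 0.14. The list medians were 0.02, 0.08 and 0.52, against -0.01 for all genes. At the step to small pre-B cells, where 31.2% of all genes rose and 30.3% fell, 12 of 15 regulators rose and 0 fell, led by Spib (1.54 ± 0.09) and Ikzf3, the Aiolos gene (1.54 ± 0.11). Joining partners split, with 5 of 14 higher and 5 lower, the latter led by H2afx (-4.42 ± 0.09) and Hmgb2 (-3.15 ± 0.10), both also abundant in dividing cells. Of 11 receptor partners 8 rose and 1 fell, with Il2ra at 2.55 ± 0.17 and the cyclin gene Ccnd3 at -1.19 ± 0.11. The list medians were 0.60 for regulators, -0.10 for joining partners and 0.86 for receptor partners, against 0.03 for all genes.

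Across 7 gates and 4 libraries, patterns of log2(CPM + 10) were set beside those of 9414 other genes. Vpreb1 and Igll1 were most alike among the members (Pearson's r = 0.988 over 28 points), followed by Vpreb1 and Vpreb2 (r = 0.95), whereas Rag1 and Rag2 had r = 0.690 and Dntt and Vpreb3 r = -0.336. Lef1 was nearest to both Vpreb1 (r = 0.981) and Igll1 (r = 0.974), with Gm43352 and Cplx2 next to each, and Ttll11, Gfra2 and Smarca4 were nearest to Vpreb2 (r = 0.970, 0.961 and 0.948). Nearest to Rag1 were Gse1 (r = 0.945), Steap4 (0.931) and Smtnl2 (0.929), and nearest to Rag2 were Xrcc6 (0.901), Myb (0.891) and 2900026A02Rik (0.886). Arpp21 (r = 0.927), Myl10 (0.921) and Nbdy (0.912) were nearest to Dntt, and Pou2af1 (0.973), Chchd10 (0.961) and Irf4 (0.954) to Vpreb3. These values describe points that share libraries, depth and cell types.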

How the data were processed

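Single-cell RNA-seq was made from 4 libraries of bone marrow mononuclear cells. The authors deposited raw UMI counts per gene and barcode, and per the labels and file headers used Cell Ranger (header 3.0.1), STAR and mm10, with Seurat 2.3.4 downstream. Cells with 200 to 10000 genes and at most 10% mitochondrial UMIs were kept. UMIs were summed per library and gate where each library had at least 10 cells, and tested with edgeR 4.0.16 (filterByExpr, TMM, quasi-likelihood F test, two-sided, Benjamini-Hochberg over all genes). Plain CPM are counts per 1000000 UMIs of a gate, and normalised CPM use TMM. Steps between gates used a library term. The members, gates and lists were chosen with earlier results of these data known, and 4 alternatives were chosen after seeing the data. From the lists, genes called by genotype and the 2 largest called changes per list at each pre-B step are named, and for likeness the 3 nearest genes with at least 200 UMIs, gate markers left out. DESeq2 1.42.0 was an alternative. The code was tested on simulated data. Sequences came from RefSeq, 7 of 7 matched. Intervals cover counting error only. 1 marker of the B list is not reported here.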

Additional observations from a re-analysis of the deposited data

Results flagged for a closer look

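The genotype difference of Vpreb2 differed between small and cycling pre-B cells by -1.26 on the log2 scale, in a test of the difference itself. The genotype difference of Igll1 was 2.29 higher on the log2 scale in cycling pre-B than in immature B cells, with both TLR9-/- libraries above both WT libraries in the cycling gate and below both in the immature gate. That second difference was not tested and rests on 8 and 12 TLR9-/- UMIs against 85 and 23 WT UMIs in the immature gate. Of the 85 UMIs of WT 1, 83 were in 10 cells, and of the 23 of WT 2, 19 were in 1 cell. In that gate Igll1 stood at 14.6 and 25.4 normalised CPM in TLR9-/- against 109 and 27.0 in WT, TLR9-/- 2 and WT 2 differed by only -0.09 on the log2 scale, and WT 1 carried most of the difference.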

How the results depend on the processing

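The number of members called by genotype over all cells, 0 of 7, became 5 without a filter on low counts, 5 with DESeq2 and 1 among cells with at least 1000 UMIs, and ranged from 0 to 4 when 1 library was left out (4 without TLR9-/- 1). In cycling pre-B cells it ranged from 0 to 1 (1 without WT 2). In immature B cells it was 3 without a filter and ranged from 0 to 2 (2 without TLR9-/- 2 or WT 2), and in mature B cells it was 4 without a filter and ranged from 0 to 3 (3 without TLR9-/- 1, 2 without WT 2, 1 without TLR9-/- 2). In the pDC gate, 1 became 0 with cells holding 0 UMIs of the B list. The count in pro-B and small pre-B cells was 0 under every alternative run. In pro-B cells the sign of the log2 difference still changed under an alternative for Rag1 (up to 0.13), Dntt (0.29), Igll1 (0.53), Vpreb1 (0.06) and Rag2 (0.05). Vpreb2 and Vpreb3 stayed below 0.

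A replicate block could be fitted, but the labels do not pair the libraries, the study's methods describe 2 experiments without saying which library belongs to which, and there are only 2 pairs. Same-numbered libraries deviated together with a correlation of 0.41 over all cells, 0.30 in cycling, 0.27 in small pre-B and 0.02 in pro-B cells. With the block, 6 members were called over all cells, 3 in cycling pre-B, 2 in immature B and 2 in mature B cells. The share of all genes called with the block alone is not given here, so these counts have no background beside them. The same holds for the member counts above without a filter, among cells with at least 1000 UMIs or with 1 library left out. The number of all genes called also moved with the setting. Over the settings run it went from 38 to 1165 over all cells and from 9 to 374 in cycling pre-B cells. In immature B cells it went from 1 to 84 and in mature B cells from 8 to 84. Whether the member counts moved more than the count of all genes was not tested.

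From Flt3 progenitors to pro-B cells, the Dntt change of -0.74 reversed to 0.12 with cells holding 0 UMIs of other lineages. The 3 calls from immature to mature B cells became 1 with DESeq2, 1 without the library term, 1 among cells with at least 1000 UMIs, 1 with 0 UMIs of other lineages, and 1 to 3 when 1 library was left out (1 without WT 1 or WT 2). For the change of the genotype difference between small and cycling pre-B cells, the 1 call became 3 without a filter, 0 among cells with at least 1000 UMIs, 0 with 0 UMIs of other lineages, and 1 to 4 when 1 library was left out (4 without WT 2, 3 without TLR9-/- 1, 2 without WT 1). The share of all genes called under each of these settings is not given here. The causes were not tested.

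Shares of cells changed with depth. Without reduction Rag1 was in 32.7%, 11.5% and 29.1% of pro-B, cycling and small pre-B cells, Igll1 in 44.3% of cycling cells, and Dntt in 53.1% of Flt3 progenitors, 58.4% of pro-B and 23.0% of pDC gate cells. At 2000 UMIs Rag1 was in 19.4% of pro-B and 6.33% of cycling cells, Igll1 in 40.1% of cycling and 53.3% of small pre-B cells, and Dntt in 49.5% of Flt3 progenitors, 33.8% of small pre-B and 14.8% of pDC gate cells. The number of genes called by genotype over all cells ran from 38 to 1165. The step from the stem cell gate to Flt3 progenitors was not run, since it held under 10 cells in 2 libraries.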
